A study of Mus musculus with 16 samples.

Results

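The transcripts described here come from 9 genes, H19, Igf2, Dlk1, Meg3, Peg3, Mest, Grb10, Cdkn1c and Plagl1, which belong to a network of imprinted genes linked to growth and to muscle differentiation. The rule that picks them from the 31053 genes of the deposited table is a list of names and uses no threshold on a measured value, but the list was drawn up with earlier results of these data known. All 9 were listed in the table, 5 of them passed the filter on low values (4 or more of the 16 samples at a normalized count of 10 or higher) and were tested among 10767 genes, and 4 of them lay below it. mRNA was sequenced from C2C12 cells, a mouse myoblast line that fuses into myotubes in culture, in 4 groups of 4 samples. WT and Fam134b KO cells were each sampled as undifferentiated myoblasts and as differentiated myotubes. Fam134b encodes a membrane-shaping receptor for autophagy of the endoplasmic reticulum, and the comparisons ask how the transcriptome differs when it is lost, before and after differentiation. All cells, WT and KO, were kept in the same growth medium with serum and myotubes formed spontaneously. The KO cells were made with lentiviral CRISPR-Cas9, as a drug-selected population whose clonality is not given in the sources used here, so that a difference between genotypes is a difference between 1 WT line and 1 KO population. The samples are labelled as biological replicates, and nothing states that they came from separate derivations of the KO line, so the p-values measure the spread between these samples.

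Imprinted genes are transcribed mainly from the allele inherited from one parent, because methylation of a control region, set in the germ line, differs between the parental alleles. H19, Meg3, Cdkn1c and, in most tissues, Grb10 are expressed from the maternal allele, and Igf2, Dlk1, Peg3, Mest and Plagl1 from the paternal allele. Many of these genes are highly expressed in embryonic muscle and in regenerating muscle and fall in the adult. The counts analysed here do not separate the parental alleles, and in bulk RNA fewer cells of a type and less RNA per cell cannot be told apart.

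Several of these loci also carry microRNAs, whose mature sequences are shown because the transcripts that carry them are measured below. The microRNAs themselves were not measured. The sequences are from RefSeq (GRCm38.p6), 5′ to 3′, with the seed (bases 2 to 8) in capitals. H19 holds miR-675 in an exon (5p arm at chr7:142577112-142577133, minus strand), Igf2 holds miR-483 in an intron (5p arm at chr7:142654968-142654989, minus strand) and Mest holds miR-335 in an intron (5p arm at chr6:30741314-30741336, plus strand). No seed was shared between the 6 arms.
miR-675-5p: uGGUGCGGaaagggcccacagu
miR-675-3p: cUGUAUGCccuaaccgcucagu
miR-483-5p: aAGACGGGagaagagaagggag
miR-483-3p: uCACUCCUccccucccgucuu
miR-335-5p: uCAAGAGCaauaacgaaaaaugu
miR-335-3p: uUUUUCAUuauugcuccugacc

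Promoter windows (250 bases before to 50 bases after a start) were listed for 7 of the 9 genes, in 14 windows. They were searched for CAGCTG, an E-box core bound by the muscle regulators MyoD and myogenin, for any E-box (CANNTG, which includes CAGCTG), and for GGGGCCCC, a site bound by PLAGL1. Each of these motifs reads the same on both strands. CAGCTG was found in 1 of the 14 windows and in 16.3% of the 32851 windows of the genome table, CANNTG in 8 of the 14 and in 72.3%, and GGGGCCCC in 1 of the 14 and in 1.08%. The 2 windows that held CAGCTG or GGGGCCCC, of Mest and Peg3, are shown with the motif in capitals. The other Mest windows and the windows of Igf2, which was also lower in KO cells, held neither. H19 and Cdkn1c had no window listed. The Mest window shown is that of an upstream start (chr6:30733256-30733555, plus strand), with CAGCTG starting 135 bases before the start. The Peg3 window (chr7:6730370-6730669, minus strand) holds GGGGCCCC starting 201 bases before the start. A match is a description of the letters and not a measured binding site.
Mest promoter: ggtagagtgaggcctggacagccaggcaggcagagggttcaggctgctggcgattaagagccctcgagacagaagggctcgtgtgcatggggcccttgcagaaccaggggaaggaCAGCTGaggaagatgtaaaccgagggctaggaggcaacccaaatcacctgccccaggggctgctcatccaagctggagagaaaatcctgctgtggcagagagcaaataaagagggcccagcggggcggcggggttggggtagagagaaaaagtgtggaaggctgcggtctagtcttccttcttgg
Peg3 promoter: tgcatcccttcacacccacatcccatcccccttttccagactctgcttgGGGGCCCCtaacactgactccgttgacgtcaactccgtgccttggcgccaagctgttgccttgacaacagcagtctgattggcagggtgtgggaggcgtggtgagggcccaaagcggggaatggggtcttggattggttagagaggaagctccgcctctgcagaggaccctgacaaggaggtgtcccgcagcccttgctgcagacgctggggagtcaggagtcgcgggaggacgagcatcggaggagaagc

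The libraries held 1484750 to 3287461 reads on genes, and the shallowest libraries were Fam134b KO myotube replicates 4 (1484750 reads) and 2 (1790524 reads). A count of 3 reads, the smallest level taken as detected, corresponded to a normalized count of 2.49 to 5.99, and intervals and floors cover counting error only. Fam134b itself was 207 ± 42.0 normalized counts in WT myoblasts, 232 ± 61.6 in WT myotubes, 27.5 ± 5.49 in KO myoblasts and 41.8 ± 14.0 in KO myotubes (mean ± SD, n = 4), with a KO minus WT log2 difference of -2.86 in myoblasts and -2.46 in myotubes (adjusted p = 2.95e-08 and 9.85e-07). The samples also differed in muscle markers. The summed normalized count of 6 myotube markers (Myog, Myh3, Actc1, Tnnc2, Ckm and Mymk) was 549.9 to 892 in WT myoblasts and 0.83 to 5.01 in KO myoblasts, and in myotubes it was 14214 to 18272 in WT and 6686 to 8175 in KO cells, and Myog was at 0 in each KO myoblast sample. Myod1 had mean normalized counts of 282 and 763 in WT myoblasts and myotubes and 9.62 and 292 in KO myoblasts and myotubes. The myoblast marker Des had means of 516, 1009.8, 132 and 304 in WT myoblasts, WT myotubes, KO myoblasts and KO myotubes. Myf5, also a myoblast marker, went the other way in myoblasts, with means of 71.1, 71.6, 114 and 64.9 in that order. Pax7 had at most 5 reads in any WT sample and 0 in the KO samples. The summed count of 4 cell-cycle markers (Mki67, Top2a, Ccnb1 and Cdk1) was 3049 to 3746, 1668 to 2732, 2362 to 4161 and 711 to 1201 in the same order. The markers of other cell types were low apart from the fibroblast marker Col1a1. Summed normalized counts over all samples were 0 to 26.2 for 4 adipocyte markers, 0 to 1.94 for 3 endothelial markers, 4.00 to 24.2 for 3 immune markers and 7.77 to 37.4 for 3 glial and neural markers. The sum of 4 fibroblast markers ranged in myoblasts from 2258 to 4589.6 (WT) and 3022 to 11546 (KO), and in myotubes from 9989.8 to 16236 (WT) and 12189 to 24706 (KO), and so was higher in myotubes of both genotypes. Ptprc (immune), Adipoq and Plin1 (adipocyte), Cdh5 (endothelial) and Sox10 (glial) were at 0 in each of the 16 samples. The fibroblast markers Thy1 and Dpt had at most 3 reads, and Pdgfra had group means of 4.73 to 9.35 normalized counts. The fibroblast sum was therefore nearly all the collagen gene Col1a1, with means of 3078, 12652, 7156 and 17938 in WT myoblasts, WT myotubes, KO myoblasts and KO myotubes. The genotype and stage differences described next therefore run beside differences in myotube markers, Myod1, Des, cell-cycle markers and Col1a1. The part of these in the results was not tested.

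H19 is a long non-coding RNA (ENSMUSG00000000031, chr7:142575529-142578143, minus strand, GRCm38) with no protein product. Its normalized count was 43313, 39556, 41261 and 43459.6 in the 4 WT myoblast samples and 83527, 127916, 117888 and 124757 in WT myotubes. It was 2941, 3951, 3322 and 3460.4 in KO myoblasts and 21313, 17933, 20251 and 33514 in KO myotubes. The 4 groups did not overlap, and each KO sample was below each WT sample of either stage, myotubes included. On differentiation H19 rose by 1.42 on the log2 scale in WT cells (SE 0.25, adjusted p = 3.23e-04) and by 2.73 in KO cells (SE 0.25, adjusted p = 3.35e-08). Against WT, H19 was 12.3-fold lower in KO myoblasts (log2 difference -3.62, adjusted p = 4.01e-10) and 4.96-fold lower in KO myotubes (log2 difference -2.31, adjusted p = 1.31e-06). Under quantile normalization, which aligns the most abundant genes of each sample, the H19 difference kept its direction and call but measured -1.15 in myotubes and the WT rise 0.78.

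The abundance of H19 made it a visible part of the library. It took 1.48% to 1.62% of the reads in WT myoblasts and 3.24% to 4.69% in WT myotubes, where it ranked number 1 of all genes by read count in each of the 4 samples. In KO myoblasts it took 0.114% to 0.145% of the reads and ranked 79 to 92, and in KO myotubes it took 0.686% to 1.13% and ranked 2 to 6.

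Igf2 encodes insulin-like growth factor 2, a secreted growth factor that myoblasts make and respond to as they differentiate (ENSMUSG00000048583, chr7:142650766-142666816, minus strand). It lies beside H19, and both genes are controlled by a shared imprinting region and shared enhancers. Its normalized count was 31.4, 22.2, 28.0 and 21.4 in WT myoblasts and 403, 188, 274 and 241 in WT myotubes. In KO myoblasts it was 0, 0.83, 0 and 0, which is 1 read over the 4 samples, and in KO myotubes it was 76.5, 49.6, 84.6 and 63.9. The groups again did not overlap, but their order differed from that of H19, since KO myotubes lay above WT myoblasts for Igf2 and below them for H19.

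The log2 change of Igf2 on differentiation was 3.34 in WT cells (SE 0.30, adjusted p = 5.47e-08) and 5.88 in KO cells (SE 0.30, adjusted p = 1.6e-12). The KO minus WT log2 difference was -4.51 in myoblasts (adjusted p = 1.99e-10) and -1.97, or 3.91-fold lower on this scale, in myotubes (adjusted p = 6.83e-05). The values against KO myoblasts are set by the added pseudocount of 1, because that group held 1 read, and measured 3.80 for the KO rise and -2.55 for the myoblast difference with a pseudocount of 5. The counts themselves, 109 reads in WT myoblasts against 1 in KO myoblasts, give a depth-adjusted ratio of 121 with a 95% counting interval of 21.2 to 4812, and 239 reads in KO myotubes against that read give 337 (60.0 to 13375).

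The level of Igf2 set against other genes is uncertain. Of its exon bases, 62.8% are shared with Gm49394, a gene model on the same strand that had 0 reads in each sample, and 497 of its last 500 exon bases are among them. How the counting treated reads in shared bases is not given in the sources used here. The antisense gene Igf2os shares 98 bases and had 4 to 8 reads in the WT myotube samples and 0 to 15 in the KO myotube samples.

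**Figure D1:**
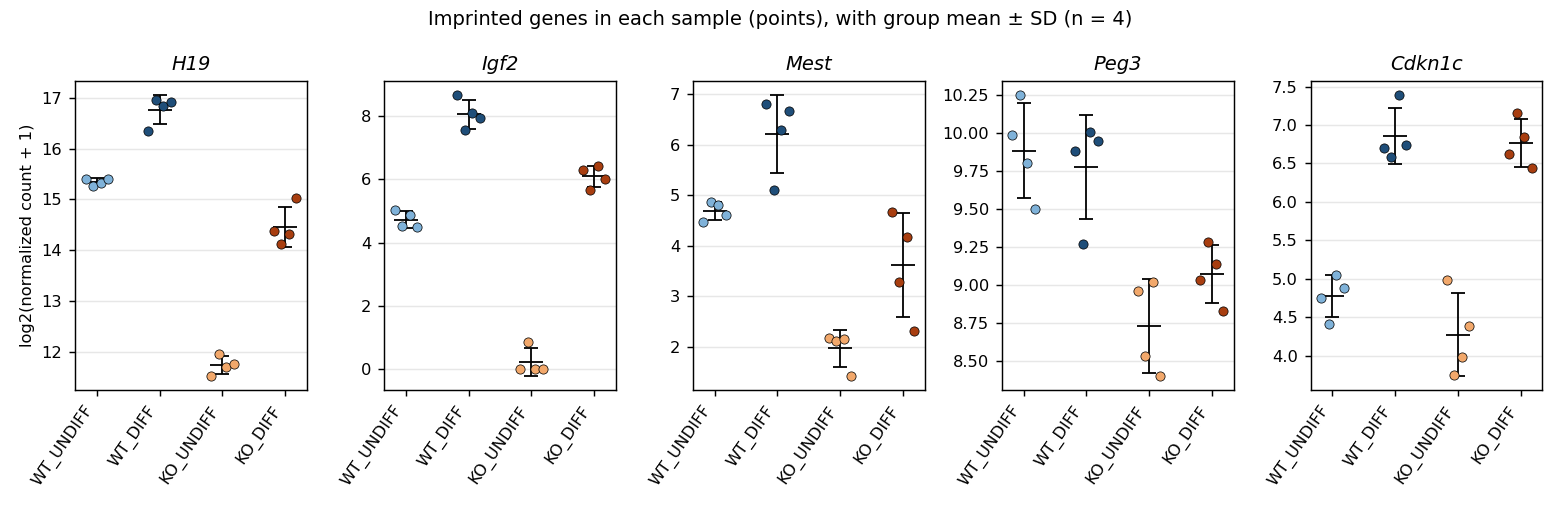
Each point is 1 sample, on a vertical axis of log2(normalized count + 1) with its own range for each gene, and bars give the group mean and SD (n = 4). The 4 groups separate for H19 and Igf2, the KO groups lie low for Mest and Peg3, and Cdkn1c separates by stage, with myoblasts at or below 32.0 normalized counts and myotubes at or above 85.9.

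Mest encodes a membrane enzyme of the alpha/beta hydrolase fold, expressed from the paternal allele in embryonic mesoderm (ENSMUSG00000051855, chr6:30723547-30748465, plus strand). Its normalized count was 21.2, 28.0, 27.0 and 23.2 in WT myoblasts and 111, 33.3, 77.1 and 100.1 in WT myotubes. It was 3.50, 3.32, 3.47 and 1.67 in KO myoblasts, which is 2 to 4 reads a sample, and 24.2, 8.76, 17.1 and 4.00 in KO myotubes. WT myoblasts and KO myotubes overlapped, and the other neighbouring groups did not. Mest rose on differentiation by 1.53 on the log2 scale in WT cells (SE 0.44, adjusted p = 0.0163) and by 1.65 in KO cells (SE 0.44, adjusted p = 0.00668). With a pseudocount of 5 the KO rise was 1.08 and still called. The WT rise rested in part on 2 samples, and its adjusted p was 0.0689 without WT myotube replicate 1 and 0.0596 without replicate 4. Mest was lower in KO cells at both stages, by a log2 difference of -2.72 in myoblasts and -2.60 in myotubes (adjusted p = 1.1e-04 and 2.24e-04), and the reads gave a WT to KO ratio of 8.31 in myoblasts (95% counting interval 4.74 to 15.7). The last 500 exon bases of Mest all lie in exons of Copg2 on the opposite strand, and Copg2 was higher in KO cells at both stages (log2 difference 1.01 and 1.03). Reads of overlapping genes on opposite strands can be told apart only by strand, and the strand setting of the counting is not given in the sources used here.

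Peg3 encodes a large zinc-finger protein that marks muscle stem cells and their progeny (ENSMUSG00000002265, chr7:6703892-6730431, minus strand). Its normalized count was 1013, 1220, 892 and 722 in WT myoblasts and 941, 614, 1027 and 989.7 in WT myotubes. It was 496, 369, 519 and 337 in KO myoblasts and 523, 619, 564 and 454 in KO myotubes. Each KO myoblast sample was below each WT sample, whereas 1 WT myotube sample, replicate 2, fell among the KO myotubes. The KO minus WT log2 difference of Peg3 was -1.16 in myoblasts (SE 0.20, adjusted p = 1.94e-04) and -0.71 in myotubes (SE 0.20, adjusted p = 0.013). The exact permutation test of 4 against 4 gave p = 0.0571 for the myotube difference, above the smallest value it can reach, 0.0286. Differentiation did not pass the test in either genotype, with a log2 change of -0.11 in WT cells (95% interval -0.52 to 0.30) and 0.34 in KO cells (-0.07 to 0.75).

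Cdkn1c encodes p57, an inhibitor of cyclin-dependent kinases that takes part in the cell-cycle exit of myoblasts (ENSMUSG00000037664, chr7:143458339-143461050, minus strand). Its normalized count was 25.8, 20.3, 32.0 and 28.5 in WT myoblasts, 103, 95.4, 166 and 106 in WT myotubes, 30.6, 12.5, 14.7 and 20 in KO myoblasts, and 97.8, 142, 113 and 85.9 in KO myotubes. Every myotube sample was above every myoblast sample, and within each stage WT and KO overlapped. Cdkn1c rose by 2.08 on the log2 scale in WT cells (SE 0.27, adjusted p = 1.04e-05) and by 2.49 in KO cells (SE 0.27, adjusted p = 4.56e-07). It was the tested gene of the network whose genotype differences did not pass the test, at -0.50 in myoblasts (95% interval -1.06 to 0.07, adjusted p = 0.251) and -0.09 in myotubes (-0.65 to 0.48, adjusted p = 0.851). These intervals do not exclude a modest difference. Its imprinted domain lies on the same chromosome as H19 and Igf2 but has its own control region.

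The other 4 genes were at or near 0 and were not tested. Dlk1, a membrane ligand related to Delta that is expressed in embryonic muscle (chr12:109452823-109463336, plus strand), had 0 reads in each of the 16 samples. Meg3, the maternally expressed non-coding RNA of the same domain (chr12:109541001-109571726, plus strand), had 1 read in WT myoblast replicate 4, 1 read in KO myotube replicate 1 and 0 in the other samples. The other listed genes of that domain with an entry in the table, Rtl1, Mirg and Dio3, were at 0 in each sample and Begain had at most 5 reads. Grb10, an adaptor that inhibits signalling from the insulin and IGF receptors (chr11:11930508-12038683, minus strand), had 0 to 3 reads a sample in every group. Plagl1, a zinc-finger transcription factor that regulates other genes of the network (chr10:13060504-13131694, plus strand), had 3, 0, 1 and 2 reads in the WT myoblast samples and 0 in the other 12 samples. Without the filter on low values the fit called Plagl1 lower in KO than in WT myoblasts (adjusted p = 0.0149) and in WT myotubes than in WT myoblasts (adjusted p = 0.013), on these 6 reads. At this depth, differences between groups in these 4 genes were otherwise not detectable.

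Set side by side, 4 of the 9 genes (H19, Igf2, Mest and Cdkn1c) were called higher in WT myotubes than in WT myoblasts, 0 were called lower, 1 was not called and 4 were not tested. Among all 10767 tested genes, 13.8% were called higher and 9.16% lower in this comparison. The same 4 were called higher in KO myotubes than in KO myoblasts, against 17.3% higher and 16.1% lower among all genes. In KO against WT myoblasts H19, Igf2, Mest and Peg3 were called lower and none of the network higher, against 8.50% lower and 7.26% higher among all genes. The same 4 were called lower in KO than in WT myotubes, against 13.7% lower and 9.74% higher. The median log2 difference of the 5 tested genes was 1.53 and 2.49 for differentiation in WT and KO cells and -2.72 and -1.97 for KO against WT in myoblasts and myotubes, where all tested genes had medians of -0.01, -0.02, -0.01 and -0.07. These comparisons share samples. For Igf2 and Mest no KO myoblast sample reached a normalized count of 10, so both passed the filter only through the other groups. The counts therefore describe the 5 genes and are not separate pieces of evidence. With KO myotube replicates 2 and 4 both left out, the 4 genes were still called in each of the comparisons that use KO myotubes.

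**Figure D2:**
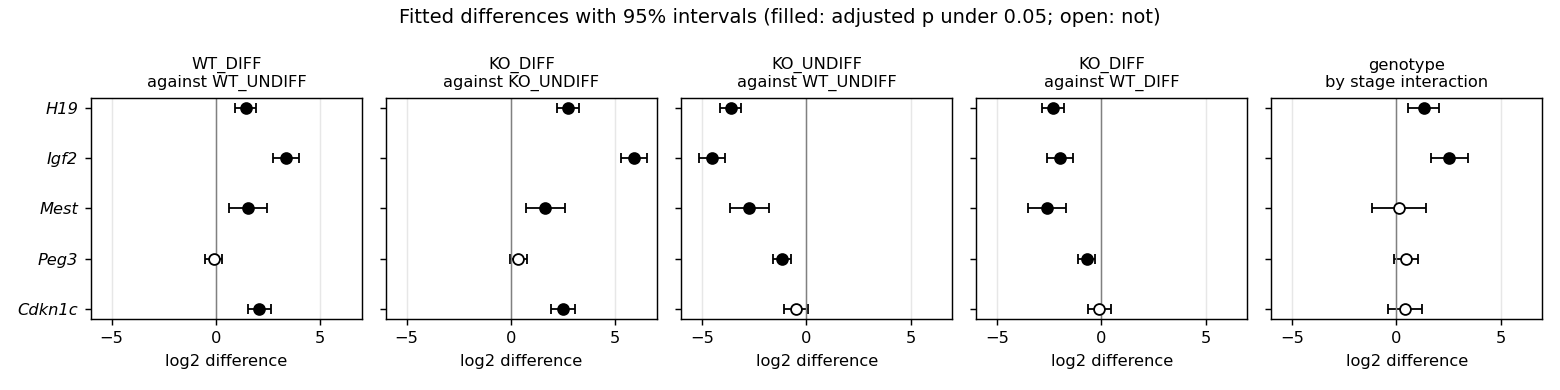
Points give the fitted log2 difference of each tested gene on the horizontal axis, bars the 95% interval, and filled points an adjusted p under 0.05, in the 4 pairwise comparisons and the interaction. H19, Igf2 and Mest lie to the right for differentiation and to the left for KO against WT, Peg3 has filled points for KO against WT and Cdkn1c for differentiation.

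The interaction of genotype and stage asks whether the change on differentiation differed between genotypes. It was called for H19 and Igf2, where 3.45% of all tested genes were called in either direction. The rise of H19 was larger in KO than in WT cells by 1.31 on the log2 scale (SE 0.35, adjusted p = 0.0421). The mean KO level was 0.0816 of the mean WT level in myoblasts and 0.205 of it in myotubes. Under quantile normalization the difference was 1.98. The adjusted p was under 0.05 without WT myotube replicate 2, KO myoblast replicate 2 or KO myotube replicate 1 or 2, and between 0.0503 and 0.11 without any of the other 12 samples. The call was also lost with both shallow KO myotube libraries left out (1.19, adjusted p = 0.0649, an alternative chosen after seeing the data) and with no filter on low values (adjusted p = 0.19). The Igf2 interaction was 2.54 (SE 0.42, adjusted p = 8.6e-04), but it depends on the value given to 1 read in KO myoblasts and was 0.65 (adjusted p = 0.316) with a pseudocount of 5. For Mest, Peg3 and Cdkn1c the interaction was 0.12, 0.45 and 0.41 with 95% intervals of -1.18 to 1.42, -0.13 to 1.03 and -0.39 to 1.21, and none passed the test.

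The order of the 4 groups was compared within each gene by exact permutation tests of neighbouring groups, 15 tests in all, in which 4 samples against 4 can reach p = 0.0286 (0.0477 after Benjamini-Hochberg adjustment over the 15). H19 fell in the order WT myotubes, WT myoblasts, KO myotubes, KO myoblasts, and each step reached that smallest p. Igf2 fell in the order WT myotubes, KO myotubes, WT myoblasts, KO myoblasts, again with each step at the smallest p. Mest had the order of H19, but WT myoblasts and KO myotubes did not differ beyond their spread (p = 0.0857 by the exact test). For Peg3 no step passed these exact tests (exact p = 0.0571 to 0.657), although limma, which estimates the spread with all genes and samples, called the step between WT and KO myotubes, as given above. For Cdkn1c the 2 myotube groups did not differ from each other (exact p = 0.686), nor did the 2 myoblast groups (exact p = 0.171), and the step between stages reached the smallest p.

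H19 and Igf2 lie in 1 domain and are expressed from opposite parental alleles, so their ratio was followed in each sample. The log2 ratio of H19 to Igf2 was 10.63 ± 0.25 in WT myoblasts, 8.71 ± 0.73 in WT myotubes and 8.37 ± 0.49 in KO myotubes (mean ± SD, n = 4). It was lower in myotubes than in myoblasts in WT cells, by 1.92, since Igf2 rose more than H19. The exact permutation p was 0.0286, the smallest that test can give, and 0.0381 after adjustment over 4 tests. That adjustment includes the comparisons with KO myoblasts, whose ratio is set by the added 1. WT and KO myotubes were not separated by the ratio (difference -0.34, exact p = 0.486), although both genes were lower in KO myotubes. In KO myoblasts Igf2 had 0 or 1 read, and the ratio, 11.51 ± 0.31 with the added 1, is set by that 1. With Igf2 placed at the floor of 3 reads in each library the plain ratio of the counts, with nothing added, would be 1120.3 to 1587, beside 1381 to 2032 in WT myoblasts. The fitted direction against WT myoblasts turned with the pseudocount, from 0.88 at 1 to -1.07 at 5, so no direction is given. The ratio counts reads on each gene's countable bases, which are not equal for these genes.

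**Figure D3:**
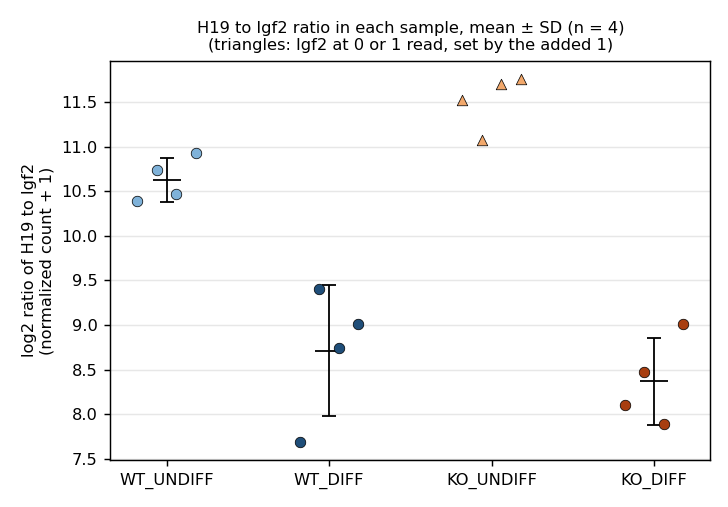
Points give the log2 ratio of H19 to Igf2, each as normalized count + 1, in each sample, with mean and SD (n = 4) for 3 groups. Myotubes of both genotypes lie between 7.69 and 9.40, below the WT myoblasts at 10.39 to 10.92, and the triangles of KO myoblasts depend on the added 1.

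Within groups, the genes did not all vary together. Over the 12 samples outside KO myoblasts, the deviations of log2 values from the group means had a Pearson correlation of 0.58 between Igf2 and Mest and 0.53 between Mest and Peg3, and of -0.35 between H19 and Igf2, -0.64 between H19 and Mest and -0.48 between H19 and Peg3. For example, WT myotube replicate 1 had the lowest H19 (83527) and the highest Igf2 (403) and Mest (111) of its group. Replicate 2 had the highest H19 (127916) and the lowest Igf2 (188), Mest (33.3) and Peg3 (614). These are descriptions of few samples that share a library and its normalization.

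The genes whose profile over the 16 samples was most like that of each tested member were found by the root mean square difference of centred log2 values. For H19 they were Tnnt2 (0.43), Chchd10 (0.463) and Gpx3 (0.467), and Tnnt2, a troponin of embryonic and cardiac muscle, had mean normalized counts of 2755, 5238, 224 and 1833 in WT myoblasts, WT myotubes, KO myoblasts and KO myotubes. For Igf2 they were Cox8b (0.441), Tnnc1 (0.48) and Gm7325 (0.481). Cox8b, a subunit of cytochrome oxidase in muscle, and Tnnc1, the troponin C of slow and cardiac muscle, were, like Igf2, highest in WT myotubes and lowest in KO myoblasts. For Mest they were Ttc9 (0.475), Mamstr (0.626) and Fam167a (0.642), and Mamstr encodes a coactivator of the muscle factor MEF2. For Peg3 they were Fam178a (0.212), Pde7a (0.263) and Mapk6 (0.264), all lower in the KO groups. For Cdkn1c they were Aamdc (0.413), Enpp1 (0.487) and Adamts12 (0.49).

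Lists of other genes are given next, each with its counts of called genes. These are read against the shares of all tested genes given above, which in KO against WT were 8.50% lower and 7.26% higher in myoblasts and 13.7% lower and 9.74% higher in myotubes, with medians of -0.01 and -0.07. The lists hold few tested genes, so the counts are descriptions. KO myotube replicates 2 and 4 are the shallow libraries, and the values without both were computed after seeing the data.

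Of 8 other genes of the published network, 5 were tested. In KO against WT, 0 of the 5 were called higher and 1 lower in myoblasts, and 1 higher and 3 lower in myotubes. Dcn, encoding the matrix proteoglycan decorin, rose on differentiation by 4.61 on the log2 scale in WT and 5.58 in KO cells. Each myoblast sample had at most 6 reads. Dcn passed the filter on low values only through myotube samples, so its rise is part of how it came to be tested. With a pseudocount of 5 the rises were 3.1 in WT and 4.33 in KO cells, both called. Dcn was 1.57 higher in KO than in WT myotubes (adjusted p = 0.0265), where H19 and Igf2 were lower. That call was lost without WT myotube replicate 2 or KO myotube replicate 1 or 3 (adjusted p up to 0.105). Gatm, an enzyme of creatine synthesis, was lower in KO cells by a log2 difference of -1.50 in myoblasts and -2.23 in myotubes. It rose by 1.80 in WT cells and by 1.07 in KO cells, the latter not called without both shallow libraries (0.73, adjusted p = 0.157). Igf2r, the receptor that carries IGF2 to lysosomes, rose in WT cells by 2.25 (adjusted p = 0.00512). In WT myotubes it had 78.6, 27.0, 68.8 and 53.5 normalized counts and in KO myotubes 25.2, 5.84, 25.2 and 2, the low values being 4 reads in replicate 2 and 1 read in replicate 4. The log2 difference of Igf2r was -2.31 (adjusted p = 0.00393), and without both of these libraries it was -1.04 and not called (adjusted p = 0.0765). Gnas, a G protein subunit, was lower in KO myotubes than in KO myoblasts (-1.50) and than in WT myotubes (-1.12), the latter not called without both shallow libraries (-0.89, adjusted p = 0.0619). Sgce was not called in any of the comparisons. Of the 3 that were not tested, Nnat was at 0 in each sample, Slc38a4 had at most 3 reads and Ndn at most 6.

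Among the neighbours in the imprinted domains of the 9 genes, 23 of 27 listed genes were in the table and 11 were tested. In KO against WT, 1 of the 11 was called higher and 3 lower in myoblasts, and likewise 1 and 3 in myotubes, with medians of -0.38 and -0.33. Zim1, a zinc-finger gene next to Peg3, had 17.5, 15.4, 17.0 and 16 normalized counts in WT myoblasts and 0, 0.83, 1.74 and 1.67 in KO myoblasts, with a log2 difference of -3.19 in myoblasts (adjusted p = 8.46e-05) and -3.01 in myotubes (adjusted p = 2.04e-04). Usp29, which is transcribed away from Peg3 from the other side of their shared promoter region, had 29.5, 38.6, 43.0 and 18.7 in WT myoblasts and 7, 3.32, 1.74 and 3.34 in KO myoblasts, with differences of -2.83 and -1.61 (adjusted p = 1.81e-04 and 0.0186). The groups of WT and KO myoblasts did not overlap for either gene. Both passed the filter on low values through the WT samples, since each WT sample but only 1 KO sample reached a normalized count of 10, so their lower level in KO cells is part of how they came to be tested. With a pseudocount of 5 the myoblast difference of Zim1 was -1.84 and still called, and the call for Usp29 in myotubes was lost without WT myotube replicate 3 or KO myotube replicate 3 (adjusted p up to 0.068).

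Cobl, an actin nucleator beside Grb10, had 81.2, 82.9, 92.1 and 85.6 normalized counts in WT myoblasts and 4.37, 0, 1.74 and 0.834 in KO myoblasts, and 94.9, 64.2, 188 and 214 in KO myotubes. Grb10 itself was near 0 in these samples. The log2 difference of Cobl between KO and WT was -5.24 in myoblasts and -1.77 in myotubes (adjusted p = 1.48e-09 and 0.00227), and its interaction was 3.47 (adjusted p = 5.71e-04). The KO myoblast values were 0 to 5 reads, so the size of the myoblast difference and of the interaction depends on the added 1. With a pseudocount of 5 they were -3.79 and 2.05, and both were called (adjusted p = 6.23e-10 and 0.00379). Copg2, a coatomer subunit that overlaps Mest, went the other way and was higher in KO cells, although its myoblast call was lost without WT myoblast replicate 4 or KO myoblast replicate 1.

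On differentiation 4 of the 11 neighbours were called higher in WT cells and 3 in KO cells, and 0 lower, against 13.8% and 17.3% higher among all genes. The largest change in WT cells was that of Ddc, an enzyme of dopamine and serotonin synthesis beside Grb10, which had 0.923, 7.72, 6 and 2.67 normalized counts in WT myoblasts and 23.3, 24.3, 33.5 and 28.7 in WT myotubes (log2 change 2.63, adjusted p = 0.00132). Cobl rose by 2.32 in WT and 5.79 in KO cells (4.32 with a pseudocount of 5). Zim1 rose by 1.41 in WT and 1.59 in KO cells, but its WT call (adjusted p = 0.0484) was lost when any of 10 single samples was left out, and its KO call with a pseudocount of 5 and without KO myoblast replicate 1 or KO myotube replicate 2. Cd81, in the domain of Cdkn1c, rose by 1.11 and 1.21, with mean normalized counts of 905 and 906 in WT and KO myoblasts.

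The list of imprinted genes of other domains held 39 names, with Ago2 also under its other name Eif2c2. Of these names, 37 were in the table and 21 were tested. In KO against WT, 3 of the 21 were called higher and 2 lower in myoblasts, and 3 higher and 1 lower in myotubes, with medians of 0.21 and 0.00. In myoblasts the largest called differences were those of Gab1, an adaptor of growth factor receptors (1.18, adjusted p = 0.0409, lost when any of 8 single samples was left out), Ampd3, a deaminase of AMP (1.15, adjusted p = 0.0131), and Peg10, a gene derived from a retrotransposon (0.92, adjusted p = 0.0494, lost when any of 10 single samples was left out). In myotubes they were those of Commd1, a regulator of copper transport (-1.79, adjusted p = 0.0225), Ampd3 (1.18, adjusted p = 0.00898) and Impact, a regulator of translation (1.12, adjusted p = 9.88e-04). Commd1 had 64.9, 13.1, 123 and 5.99 normalized counts in the KO myotube samples and 106, 75.6, 118 and 118 in WT myotubes, so the low values were those of the shallow libraries, with 9 and 3 reads. Without both of these its difference was -0.20 (adjusted p = 0.645), and it was also lost without either of them or without WT myotube replicate 3 or 4.

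On differentiation 4 of these 21 genes were called higher and 1 lower in WT cells, against 13.8% and 9.16% of all genes, and 6 higher and 3 lower in KO cells, against 17.3% and 16.1%. In WT cells the largest changes were those of the non-coding RNA Airn (2.19, from a mean of 2.09 to 12.9 normalized counts), of Pon2, a lactonase (1.33), and of Casd1, a sialic acid acetyltransferase (1.19, lost without WT myoblast replicate 4 or WT myotube replicate 1). In KO cells they were those of Commd1 (-2.28), Airn (1.62) and Peg12 (-1.49, adjusted p = 0.00301). Without both shallow libraries the changes of Commd1 and Airn in KO cells were -0.69 and 0.89 and not called (adjusted p = 0.055 and 0.217). The Airn call in KO cells was also lost without KO myoblast replicate 1 or 4 or KO myotube replicate 4. Airn passed the filter on low values only through myotube samples, so its rise is part of how it came to be tested. With a pseudocount of 5 its changes were 1.33 in WT and 0.98 in KO cells, both called.

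IGF2 acts through receptors and docking proteins, and its mRNA is bound by a family of proteins. Of 10 receptors, docking proteins and mRNA binding proteins, 8 were tested. In KO against WT 1 was called higher and 2 lower in myoblasts, and 1 higher and 3 lower in myotubes, with medians of 0.13 and -0.31. The 3 lower in myotubes include Igf2r, which is also counted above among the other genes of the published network. Without both shallow libraries its difference was -1.04 and not called (adjusted p = 0.0765 by limma). Igf2bp2, which binds Igf2 mRNA among others, had 433, 351, 520.4 and 487 normalized counts in WT myoblasts, 181, 353, 318 and 285 in WT myotubes, 45.5, 39.0, 38.2 and 39.2 in KO myoblasts and 31.0, 55.4, 28.8 and 77.9 in KO myotubes. WT and KO did not overlap, and the log2 difference was -3.42 in myoblasts (adjusted p = 2.6e-09) and -2.61 in myotubes (adjusted p = 7.18e-07). Igf2bp3 was lower by -3.19 and -3.11 on the same scale, from 19.9 and 18.0 mean normalized counts in WT cells to 1.89 and 1.45. It passed the filter only through the WT samples, and its differences were -1.89 and -1.85 with a pseudocount of 5, both called. Igf2bp1 fell on differentiation in KO cells, by 2.61 on the log2 scale. It went from 17.4 to 27.4 normalized counts in KO myoblasts to 1 to 3 reads a sample in KO myotubes. With a pseudocount of 5 the change was -1.77 and still called. No KO myotube sample reached a normalized count of 10, while each KO myoblast sample did. The fall is thus part of how Igf2bp1 came to be tested. Igf1r, the receptor that carries the growth signal of IGF2, rose on differentiation by 0.81 in WT and 0.88 in KO cells. The WT call was lost without WT myoblast replicate 3 or 4 or WT myotube replicate 1 or 3, and the KO call without both shallow libraries (0.74, adjusted p = 0.0518). The docking protein Irs2 fell in WT cells by 0.80, a call lost without WT myoblast replicate 2 or WT myotube replicate 1. Irs1, another docking protein, was higher in KO cells at both stages, by 0.75 and 1.13, and rose in KO cells by 0.79.

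Of 8 listed relatives of these genes that are not imprinted, 4 were tested. In KO against WT, 2 of the 4 were called higher and 1 lower in myoblasts, and 1 and 1 in myotubes, with medians of 0.40 and 0.19. Igf1, the relative of Igf2, rose on differentiation by 1.54 in WT and 3.19 in KO cells but was higher in KO than in WT cells, by 1.07 in myoblasts and 2.72 in myotubes (adjusted p = 0.0158 and 1.71e-06), with mean normalized counts of 18.7 in WT and 129 in KO myotubes. Its myoblast call was lost without WT myoblast replicate 3 or KO myoblast replicate 3. The rise of Igf1 differed between genotypes by 1.65 (adjusted p = 0.0322), a call lost when any of 8 single samples was left out. Cdkn1a, encoding p21, rose by 1.64 and 1.67 and was lower in KO cells by a log2 difference of -0.79 in myoblasts and -0.76 in myotubes. Cdkn1b, encoding p27, rose in WT cells by 0.89, a call lost without WT myotube replicate 1, and was higher in KO than in WT myoblasts by 1.00.

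**Figure D4:**
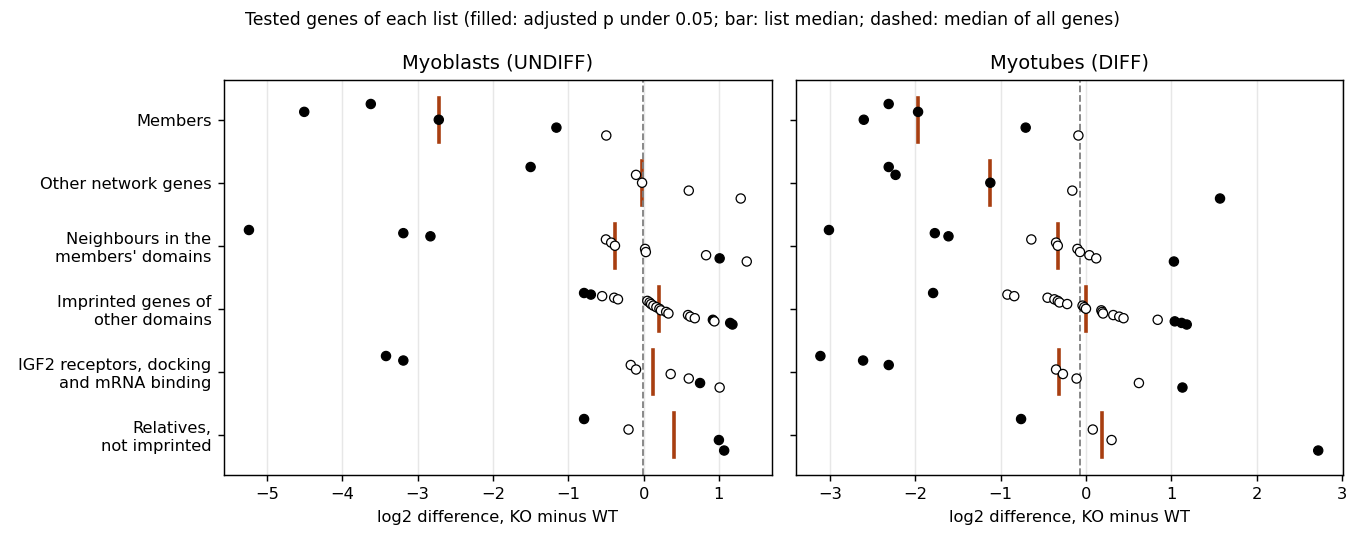
Points give the log2 difference between KO and WT for each tested gene, in myoblasts and in myotubes, with filled points at an adjusted p under 0.05, a bar at the median of each list and a dashed line at the median of all tested genes. The 5 tested genes of the network have medians of -2.72 and -1.97, and the imprinted genes of other domains 0.21 and 0.00.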

How the data were processed

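Libraries from RNA of C2C12 myoblasts and myotubes were made by a commercial service (digital mRNA-seq) and read from 1 end. Per the study's methods and processing notes, bbduk trimming and removal of rRNA and phiX reads preceded alignment to mm10 with STAR 2.6.0a and gene counting with HTSeq. The values deposited by the authors are log2 values of normalized counts with 1 added, since 2 to the power of a value, minus 1, was a whole multiple of 1 step per sample for 100% of values above 0 (tolerance 0.1 read). The normalization tool is not given in the sources used here, and median-ratio scaling left the values unchanged. Reads recovered from the steps gave the depth, floors and counting intervals.

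Samples were grouped by title, since a genotype field reads unknown. A filter of 4 or more samples at a normalized count of 10 or higher left 10767 genes, and limma 3.58.1 (R 4.3.3) tested these in 1 model of 4 group means with trended variance, on the log2 values as deposited. Genes with a Benjamini-Hochberg adjusted p under 0.05 over all tested genes were called. Fold changes are on the scale of log2(normalized count + 1), which understates changes of low genes. Exact permutation tests were two-sided, and the script was tested on simulated data. Rows without a gene symbol held at most 0.0164% of reads. Samples of equal replicate number were treated as unpaired. Over 24 pairs of equal number the correlation of deviations had a mean of 0.033 (-0.223 to 0.369, with 10 pairs above 0.1). For pairs of other numbers the mean was -0.0108. Coordinates and overlaps are from GENCODE M21 and sequences from RefSeq, both on GRCm38. The 9 genes, the gene lists and the markers were chosen with earlier results of these data known. Named genes were the 9 genes, Fam134b, at most 3 called genes with the largest change per list and comparison, the 3 most alike genes and the markers. Alternatives tried were another pseudocount, filter, scaling, threshold, weighting or set of samples, and a replicate block.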

Additional observations from a re-analysis of the deposited data

Results flagged for a closer look

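The difference between genotypes in the change on differentiation was tested directly and passed for H19 (1.31 on the log2 scale, adjusted p = 0.0421 by limma) and for Igf2 (2.54, adjusted p = 8.6e-04 by limma). The H19 call was lost when any of 12 of the 16 samples was left out, and the Igf2 value rested on a KO myoblast group with 1 read and was 0.65 (adjusted p = 0.316 by limma) with a pseudocount of 5.

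In 2 groups a single sample stood apart from the other 3. The lowest Mest value in KO myoblasts, replicate 4, had a gap to its neighbour of 0.922 of the group's range, and it rested on 2 reads. The lowest Peg3 value in WT myotubes, replicate 2 at 614 normalized counts, had a gap of 0.83 of the range, just above the critical value for 4 samples. Of 19 groups examined, chance alone marks about 1 in 20.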

How the results depend on the processing

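The counts of 4 called genes in the 4 pairwise comparisons stayed within 1.5 times under each alternative tried, at 3 to 5. The count of 5 arose with no filter, in WT differentiation and in KO against WT myoblasts, where Plagl1 was called on 6 reads. The count for the interaction fell from 2 to 1 with a threshold of 0.01, a pseudocount of 5, no filter, and both shallow KO myotube libraries left out (chosen after seeing the data), and was 1 to 2 when 1 sample was left out. With the replicate number as a replicate block the counts were 4, 4, 4, 4 and 2, as without it. Of the results for single genes of the network, 663 kept direction and side of the threshold, 17 lost the call and 10 turned sign. Those that turned were not called under either setting. Of 72 calls of listed genes outside the network, 48 were kept under each alternative, 19 were lost when at least 1 sample was left out, 9 without both shallow libraries and 2 with the replicate block (Zim1 in WT differentiation and Peg10 in myoblasts), and 0 turned sign. The Peg3 change in WT cells was 0.045 with sample weights and -0.24 to 0.061 with 1 sample left out, turning without WT myoblast replicate 2 or WT myotube replicate 2. The Cdkn1c difference in myotubes was -0.22 to 0.089 with 1 sample left out, turning without WT myotube replicate 3 or KO myotube replicate 4. The Mest interaction was -0.32 with a pseudocount of 5 and -0.25 to 0.55 with 1 sample left out, turning without WT myotube replicate 2, KO myoblast replicate 4 or KO myotube replicate 1 or 3. The cause was not tested.

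The log2 ratio of H19 to Igf2 in KO against WT myoblasts turned from 0.88 to -1.07 with a pseudocount of 5, and that in KO differentiation, which uses the same group, was -3.15, -4.00 with a pseudocount of 0.5 and -1.07 with 5. With 1 sample left out it was 0.80 to 1.03 there, -2.15 to -1.58 for WT differentiation, -3.36 to -2.99 for KO differentiation and -0.68 to -0.11 for KO against WT myotubes, and 3 samples against 4 cannot reach an exact p under 0.0571. The ratio of Dlk1 to Meg3 was not run, because Dlk1 had no read. Counts over all genes moved by more than 1.5 times with sample weights (4683 called for WT differentiation in place of 2474, 3773 for KO against WT myoblasts in place of 1697, and 1221 for the interaction in place of 371). With only the 8 samples compared they were 2656 for KO against WT myoblasts and 1565, in place of 2521, for myotubes. At a threshold of 0.01 they were 1269, 2216 (in place of 3591), 1041, 1349 and 141 in the order of the comparisons above. Leaving out 1 sample brought WT differentiation to 1564 without WT myotube replicate 1, and the interaction to 231 to 245 without WT myoblast replicate 2, WT myotube replicate 3 or KO myoblast replicate 1 or 4. Depth limits what can be said of Dlk1, Meg3, Grb10, Plagl1 and the KO myoblast values of Igf2 and Mest.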
